A study of Mus musculus with 2 samples.

Results

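The genes described here are 10 core members of the Notch pathway, namely the ligands *Jag1*, *Jag2* and *Dll4*, the receptors *Notch1*, *Notch2*, *Notch3* and *Notch4*, and the target genes *Hes1*, *Hey1* and *Hey2*. They were chosen by name from the 22652 genes of both count tables, as core genes of the pathway and with earlier results of these data known, and all 10 had at least 1 unique molecular identifier (UMI) in each library. Their levels are given in arterial and other endothelial cells (ECs), mural, stromal, cartilage and blood cells of the fetal femur.

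The data are 2 BD Rhapsody whole-transcriptome single-cell RNA-seq libraries of femoral bone marrow cells from C57BL/6 mouse embryos at E18.5, 1 library per group, which captures cells in microwells and tags each polyadenylated transcript with a UMI. Both were made from the Lin- fraction, from which cells with the lineage antigens Ter119, Gr-1, B220 and CD3e had been depleted, so mature red cells, granulocytes and lymphocytes were largely removed. The first group is labelled WT and the second Bmx-CreER Wls. In the second, a tamoxifen-inducible Cre under the control of *Bmx*, a gene active in arterial ECs, was used to delete *Wls*, whose product is needed for Wnt secretion. Neither the number of embryos in a library nor the litter and tamoxifen treatment of the WT library is given in the sources used here. With 1 library per group there are no replicates, so no test was made, no p-value is given, and every interval covers counting error only. A difference between the libraries cannot be told apart from a difference between these particular preparations.

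Notch receptors are single-pass membrane proteins that are activated by ligands on a neighbouring cell. Binding leads to cleavage of the receptor, and its intracellular part enters the nucleus, joins the DNA-binding protein RBPJ and switches on target genes, among them the transcriptional repressors of the Hes and Hey families. In blood vessels the pathway is known for its part in arterial identity and in the recruitment of mural cells, the pericytes and smooth muscle cells that cover vessels, and endothelial Notch ligands are among the signals known to reach blood stem and progenitor cells.

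The promoters of 4 members are shown because most of their UMIs lay in few classes in the values below. These were endothelial cells for *Dll4* and *Notch4*, mural cells for *Notch3*, and mural, arterial and osteolineage cells for *Hey2*. The windows were taken from RefSeq on GRCm38.p6, where 8 of the 10 members matched an entry. *Hes1* and *Hey1* had no entry. Each is printed 5′ to 3′ on the strand of the gene and ends before the first annotated base of the gene. The *Dll4* window is chr2:119325534-119325783 on the plus strand, that of *Notch4* is chr17:34564045-34564267 on the plus strand, that of *Hey2* is chr10:30842802-30843033 on the minus strand, and that of *Notch3* is chr17:32166891-32167140 on the minus strand. Capitals mark the core letters TGGGAA bound by RBPJ, searched on both strands as TGGGAA and TTCCCA.
*Dll4*: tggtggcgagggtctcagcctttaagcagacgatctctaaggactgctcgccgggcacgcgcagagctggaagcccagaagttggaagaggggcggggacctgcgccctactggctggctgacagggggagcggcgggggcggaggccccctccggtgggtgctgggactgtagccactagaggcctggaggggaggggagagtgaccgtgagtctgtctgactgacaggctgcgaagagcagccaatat
*Notch4*: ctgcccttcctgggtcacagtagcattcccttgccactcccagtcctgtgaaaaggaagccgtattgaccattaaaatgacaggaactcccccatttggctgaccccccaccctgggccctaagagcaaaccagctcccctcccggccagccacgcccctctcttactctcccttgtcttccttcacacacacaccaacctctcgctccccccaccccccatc
*Hey2*: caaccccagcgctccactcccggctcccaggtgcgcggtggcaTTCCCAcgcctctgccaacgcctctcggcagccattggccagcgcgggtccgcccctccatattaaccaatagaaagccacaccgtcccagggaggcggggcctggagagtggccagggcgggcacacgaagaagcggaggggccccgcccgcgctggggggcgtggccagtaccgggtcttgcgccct
*Notch3*: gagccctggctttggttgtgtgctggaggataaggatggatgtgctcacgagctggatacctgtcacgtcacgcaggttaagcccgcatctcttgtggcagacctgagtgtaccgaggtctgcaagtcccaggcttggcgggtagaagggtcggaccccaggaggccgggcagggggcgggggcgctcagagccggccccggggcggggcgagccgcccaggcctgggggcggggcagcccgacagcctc
Over the 250 bases before the RefSeq start, the RBPJ core was present in 1 of the 8 matched members, *Hey2*, on the opposite strand and 207 bases before the start. The *Notch1* and *Jag2* windows lay wholly inside the annotated gene, and the *Jag1* window partly. The bases before the annotated starts of *Notch1* and *Jag2* were therefore not searched. The share of all 32851 promoter windows of the same length that held it was 21.6%. The letters ACAAT of the SOX core, searched on both strands as ACAAT and ATTGT, were present in *Notch4*, 10 bases before the start and outside the stretch printed above, and in *Jag1*, 163 bases before the start, against 27.7% of all windows. A match is a description of letters only.

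The WT library held 5998 barcodes and 22708005 UMIs, and the Bmx-CreER Wls library 6825 barcodes and 24704991 UMIs. After filtering, 5736 and 6620 cells were kept, with a median of 3128 and 3067 UMIs, and 48 of the kept barcodes were present in both libraries. Cells of both libraries were clustered together. The 10 Notch genes, 47 other pathway genes and cell cycle genes were left out of the variable genes used for this. The clusters were named from marker genes as 16 classes with names that end in "-like". These names are rebuilt and are not the authors' own. A list of the study's own WT classes was held here only in part. Of the cells it gives as arterial ECs, 98.2% fell into the arterial EC-like class here, against 98.9% for other ECs, 82.2% for mural cells, 76.0% for bone marrow stromal cells (BMSCs), 92.4% for osteolineage cells, 98.4% for chondrocytes and 51.4% for haematopoietic stem and progenitor cells (HSPCs). The listed HSPCs were therefore the cells least often placed in the matching class here. In the other direction, matching listed cells made up 37 of the 106 WT mural-like, 938 of the 2658 chondrocyte-like and 89 of the 169 HSPC-like cells. The class sizes were 78 WT and 73 Bmx-CreER Wls cells for arterial EC-like, 480 and 366 for other EC-like, 106 and 105 for mural-like, 1040 and 669 for BMSC-like, 309 and 164 for osteolineage-like, 2658 and 4390 for chondrocyte-like, and 169 and 100 for HSPC-like cells. All 10 arterial markers were detected in the arterial EC-like cells of each library. Their summed level was 8665 CPM (UMIs per 1000000 UMIs of the class) there and 427 in other EC-like cells of the WT library, and 9552 and 467 in the Bmx-CreER Wls library. The class was named from these same markers, so their level is no separate check of its name. *Wls* itself had 10 UMIs (37.4 CPM, 17.9 to 68.8) in the WT arterial EC-like cells and 2 UMIs (6.70 CPM, 0.812 to 24.2) in the Bmx-CreER Wls ones. In other EC-like cells it had 61 UMIs (39.2 CPM) in the WT and 33 UMIs (23.7 CPM) in the Bmx-CreER Wls library. Counts from the transcript end can lie outside the deleted part, so these values do not check the label.

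Each level below is a gene's UMI sum over the cells of a class in CPM, followed by its exact 95% Poisson interval in parentheses, and is compared only within a gene. Where a gene had no UMI, the limit is the level that 3 counts would give. Shares of cells with a UMI depend on depth and are also given after each cell was thinned to 1000 UMIs.

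**Figure D1:**
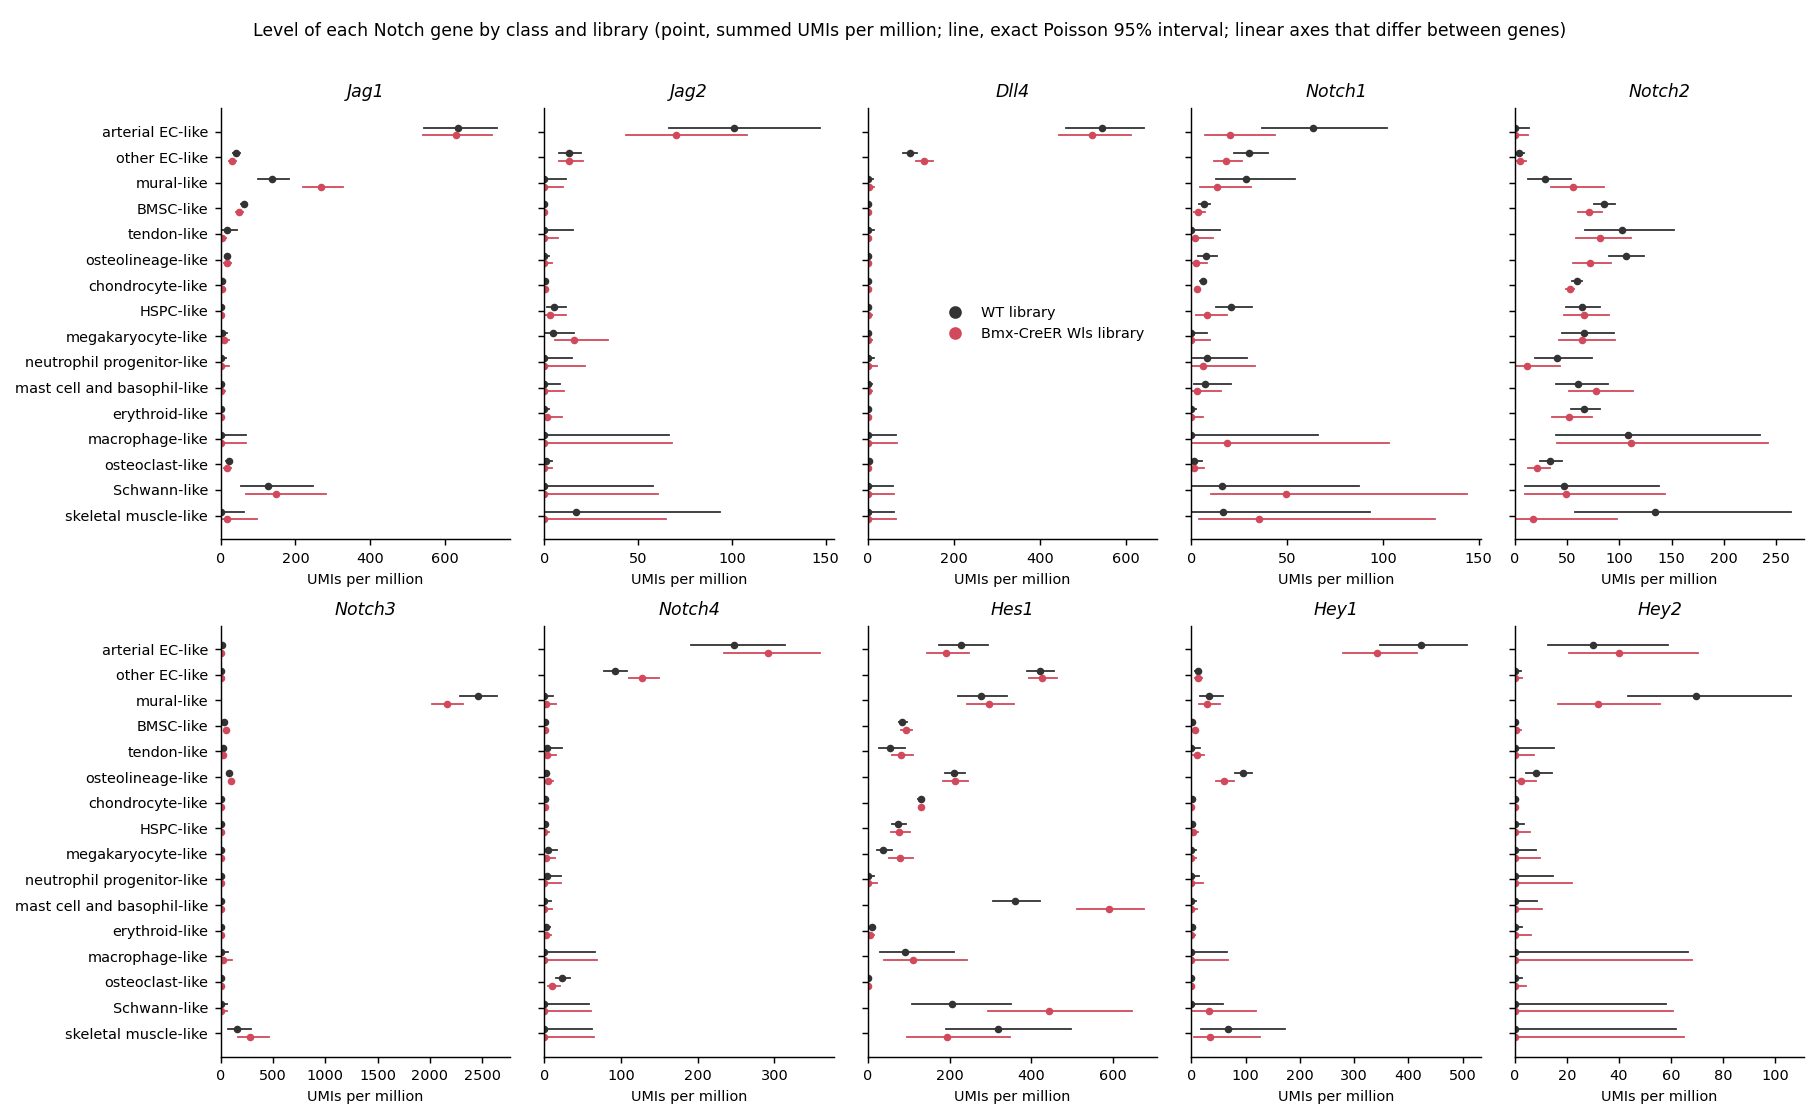
Level of each of the 10 Notch genes in 16 classes, in CPM on linear axes that differ between genes; points are the WT library (dark) and the Bmx-CreER Wls library (red), and lines are exact 95% Poisson intervals. *Jag1*, *Jag2*, *Dll4*, *Notch4* and *Hey1* were highest in arterial EC-like cells of both libraries, *Notch3* stood apart in mural-like cells at 2459 and 2167 CPM, and *Notch2* was at 0 in arterial EC-like cells.

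All 3 ligands were highest in arterial EC-like cells, in both libraries. *Jag1* (chr2:137081456-137116644, minus strand, GRCm38) encodes the ligand Jagged1. Its level was 636 (544 to 739) in WT and 630.1 (543 to 727) in Bmx-CreER Wls arterial EC-like cells, with a UMI in 51 of 78 and 45 of 73 cells. *Jag1* was not confined to them. Mural-like cells came next at 136 (98.7 to 184) and 269 (219.5 to 327), followed by Schwann-like cells at 126 (54.4 to 248) and 148 (67.7 to 281), whose intervals overlapped those of mural-like cells. BMSC-like cells had 61.1 (53.2 to 69.9) and 49.1 (40.4 to 59.1), and other EC-like cells 41.1 (31.7 to 52.5) and 30.8 (22.3 to 41.5). The step from arterial EC-like to mural-like cells was larger than the intervals in both libraries. Chondrocyte-like cells were low at 3.2 (2.13 to 4.63) and 3.70 (2.77 to 4.84), and erythroid-like cells had no *Jag1* UMI, which allows up to 2.14 and 5.05. In shares of cells, 65.4% of WT arterial EC-like cells (median 2906 UMIs) and 1.02% of WT chondrocyte-like cells (median 2692 UMIs) had a *Jag1* UMI, or 52.7% and 0.465% after thinning. The Bmx-CreER Wls shares were 61.6% and 1.16%, or 31.9% and 0.541% after thinning. The thinned arterial shares are from 74 and 72 cells.

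*Jag2* (chr12:112907819-112929776, minus strand) encodes the second Jagged ligand and had few UMIs in all, 66 in the WT and 58 in the Bmx-CreER Wls library. Arterial EC-like cells had 101 (66.6 to 147) and 70.4 (43.6 to 108), with 27 and 21 UMIs. Other EC-like cells had 12.9 in each library (7.85 to 19.8 and 7.65 to 20.4). Unlike *Jag1*, *Jag2* had no UMI in any of the 1040 WT and 669 Bmx-CreER Wls BMSC-like cells, which allows up to 0.857 and 1.33 CPM, and none in mural-like or osteolineage-like cells. Outside the endothelium, WT skeletal muscle-like cells had 1 UMI, 5 and 2 UMIs were in HSPC-like and 2 and 6 in megakaryocyte-like cells, the latter at 15.6 (5.71 to 33.9) in the Bmx-CreER Wls library, which overlapped the interval of other EC-like cells.

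*Dll4* (chr2:119325784-119335962, plus strand), the Delta-like ligand of arterial and sprouting endothelium, had the most strictly endothelial pattern of the ligands. Its level was 546 (461 to 642) and 523 (444 to 612) in arterial EC-like cells and 97.7 (82.8 to 114) and 131 (113 to 152) in other EC-like cells. No UMI was found in the 1040 and 669 BMSC-like or the 309 and 164 osteolineage-like cells. Chondrocyte-like cells had 1 and 2 UMIs, and osteoclast-like cells 5 and 0. A *Dll4* UMI was present in 73.1% of WT and 65.8% of Bmx-CreER Wls arterial EC-like cells and in 22.3% and 31.4% of other EC-like cells, against 0% of BMSC-like cells at median depths of 3181 and 3157 UMIs. After thinning, the arterial shares were 40.5% and 36.1% and the other EC shares 8.33% and 11.5%. The transcript Gm14207 overlaps the start of *Dll4* on the opposite strand and had 21 and 23 UMIs. Whether reads were assigned by strand is not given in the sources used here.

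Of the receptors, *Notch1* (chr2:26457903-26516663, minus strand) was detected at low depth, with 200 UMIs in the WT and 106 in the Bmx-CreER Wls library. WT arterial EC-like cells had 63.6 (37.1 to 102), other EC-like cells 30.2 (22.2 to 40.2), mural-like cells 28.6 (13.1 to 54.2) and HSPC-like cells 20.6 (12.8 to 31.6). The intervals of the last 3 overlapped each other, and that of arterial EC-like cells overlapped those of other EC-like and mural-like cells. The Bmx-CreER Wls values were 20.1 (7.38 to 43.8), 17.9 (11.6 to 26.5), 13.3 (4.33 to 31.1) and 8.08 (2.62 to 18.8), with overlapping intervals throughout. Among the 16 classes the highest *Notch1* value of that library was in Schwann-like cells, from 3 UMIs. The transcript 0610009E02Rik overlaps the end of *Notch1* on the opposite strand and had 24 and 32 UMIs.

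*Notch2* (chr3:98013527-98150361, plus strand) was nearly absent from endothelial cells. It had no UMI in the 78 and 73 arterial EC-like cells, which allows up to 11.2 and 10.1 CPM, and stood at 3.86 (1.41 to 8.39) and 5.02 (2.02 to 10.3) in other EC-like cells. It was present in nearly every other class. Osteolineage-like cells had 106 (90.5 to 124) and 72.4 (55.8 to 92.2), BMSC-like cells 85.4 (76.0 to 95.7) and 71.2 (60.6 to 83), and chondrocyte-like cells 59.5 (54.5 to 64.8) and 53.0 (49.3 to 56.9). HSPC-like cells had 63.9 (49.3 to 81.5) and 66.2 (47.5 to 89.9), erythroid-like cells 66.5 (53.7 to 81.4) and 52.2 (35.5 to 74.1), and megakaryocyte-like cells 66.5 (44.8 to 94.9) and 64.8 (42.0 to 95.7). In both libraries these blood classes had overlapping intervals, so no order among them was detectable. Mural-like cells had 28.6 (13.1 to 54.2) and 56.0 (34.7 to 85.7) and osteoclast-like cells 33.9 (24.6 to 45.5) and 21.1 (12.5 to 33.3). The highest values, 134 in WT skeletal muscle-like and 111 in Bmx-CreER Wls macrophage-like cells, came from 8 and 6 UMIs.

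*Notch3* (chr17:32120820-32166852, minus strand), the receptor of pericytes and vascular smooth muscle, was found in nearly every mural-like cell. It had a UMI in 104 of 106 WT and 105 of 105 Bmx-CreER Wls mural-like cells, at 2459 (2289 to 2638) and 2167 (2020.2 to 2321) CPM, and after thinning in 89.6% and 86.5%. Skeletal muscle-like cells followed at 151 (69.0 to 286) and 282 (161 to 458), from only 15 and 14 cells, then osteolineage-like cells at 79.3 (65.6 to 95.1) and 96.9 (77.6 to 119) and BMSC-like cells at 32.9 (27.1 to 39.4) and 51.3 (42.4 to 61.5). Endothelial levels were near 0. *Notch3* had 2 and 1 UMIs in arterial EC-like cells, and 0 and 4 UMIs in other EC-like cells, the 4 being in 1 cell. The antisense transcript Gm17276 over *Notch3* had 1 UMI in each library.

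*Notch4* (chr17:34564268-34588503, plus strand) is the receptor known as largely endothelial. Its level was 247 (191 to 314) and 292 (234 to 359.7) in arterial EC-like cells and 91.9 (77.4 to 108) and 128 (110.3 to 149) in other EC-like cells, and of the classes outside the endothelium one was above 5 CPM. This was the osteoclast-like class at 23.1 (15.6 to 33.0) and 10.5 (4.82 to 20), from 30 and 9 UMIs. A *Notch4* UMI was present in 16% of the 169 WT osteoclast-like cells (median 7170 UMIs) and in 2.74% of erythroid-like cells, which were deeper (median 9837 UMIs), but the osteoclast share was 0.606% after thinning, from a single cell. Mural-like cells had 0 and 1 *Notch4* UMIs.

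The target genes did not follow one pattern. *Hes1* (chr16:30064384-30067796, plus strand), a repressor of differentiation genes that many signals besides Notch can induce, was the broadest. Other EC-like cells had 422 (389.9 to 455) and 427 (394 to 463), above arterial EC-like cells at 228 (175 to 293) and 191 (145 to 248). Mural-like cells had 276 (221 to 340.5) and 296 (244 to 357), osteolineage-like cells 212 (189 to 237) and 213 (184 to 245), chondrocyte-like cells 130.4 (123 to 138) and 131 (125 to 137), BMSC-like cells 84.6 (75.2 to 94.8) and 93.7 (81.5 to 107) and HSPC-like cells 74.7 (58.9 to 93.5) and 77.5 (57.2 to 103). In blood cells *Hes1* was uneven. Mast cell and basophil-like cells, whose WT interval overlapped that of other EC-like cells, had 360.2 (306 to 422) and 589.9 (513 to 675), whereas neutrophil progenitor-like cells had no UMI (up to 12 and 17.8), osteoclast-like cells 1 and 0 UMIs, and erythroid-like cells 10 (5.47 to 16.8) and 5.05 (1.04 to 14.8).

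*Hey1* (chr3:8663359-8667256, minus strand), a repressor of the Hey family, was arterial and osteolineage. Its level was 423 (348 to 508) and 342 (279 to 415) in arterial EC-like cells and 94.9 (79.9 to 112) and 60.1 (45.2 to 78.4) in osteolineage-like cells. Skeletal muscle-like cells had 4 and 2 *Hey1* UMIs. Mural-like cells had 31.7 (15.2 to 58.4) and 29.4 (14.7 to 52.5), and other EC-like cells 11.6 (6.86 to 18.3) and 12.9 (7.65 to 20.4). A *Hey1* UMI was present in 60.3% and 57.5% of arterial EC-like cells and in 3.12% and 3.55% of other EC-like cells, or 31.1% and 23.6% against 0.641% and 0.838% after thinning. *Hey2* (chr10:30832359-30842801, minus strand), the related repressor of arteries and smooth muscle, had only 44 and 33 UMIs in all. Mural-like cells had 69.8 (43.7 to 106) and 32 (16.5 to 55.9), and arterial EC-like cells 29.9 (12.9 to 59.0) and 40.2 (20.8 to 70.3). Osteolineage-like cells held 12 and 2 UMIs, 27.3% and 6.06% of all *Hey2* UMIs. The 480 and 366 other EC-like cells had no *Hey2* UMI, which allows up to 1.93 and 2.15. The order of mural-like and arterial EC-like cells for *Hey2* differed between the libraries, and the intervals of both overlapped in each.

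Across the 16 classes, 6 of the 10 members had the same highest class in both libraries. Among the 7 classes chosen for the comparisons below, listed above with their sizes and not all of them the largest, 9 of 10 did. *Hey2* was the exception.

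The share of each gene's UMIs by class shows where most transcripts lay, which also depends on how many cells of a class were captured. Arterial EC-like cells were 1.36% of the kept WT cells and 1.10% of the kept Bmx-CreER Wls cells. They held 27.3% (23.9 to 31.0, exact binomial interval) and 33.5% (29.6 to 37.6) of all *Jag1* UMIs, and mural-like cells held 6.91% (5.05 to 9.20) and 18% (14.9 to 21.4). BMSC-like cells, with a lower *Jag1* level but more cells, held 34.4% (30.7 to 38.3) and 19.8% (16.6 to 23.3). BMSC-like cells were 18.1% of the WT and 10.1% of the Bmx-CreER Wls cells, so the shares of cells and of UMIs moved together. For *Hes1*, chondrocyte-like cells held the most UMIs, 37.7% and 52.1%, and they were 46.3% and 66.3% of the cells.

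**Figure D2:**
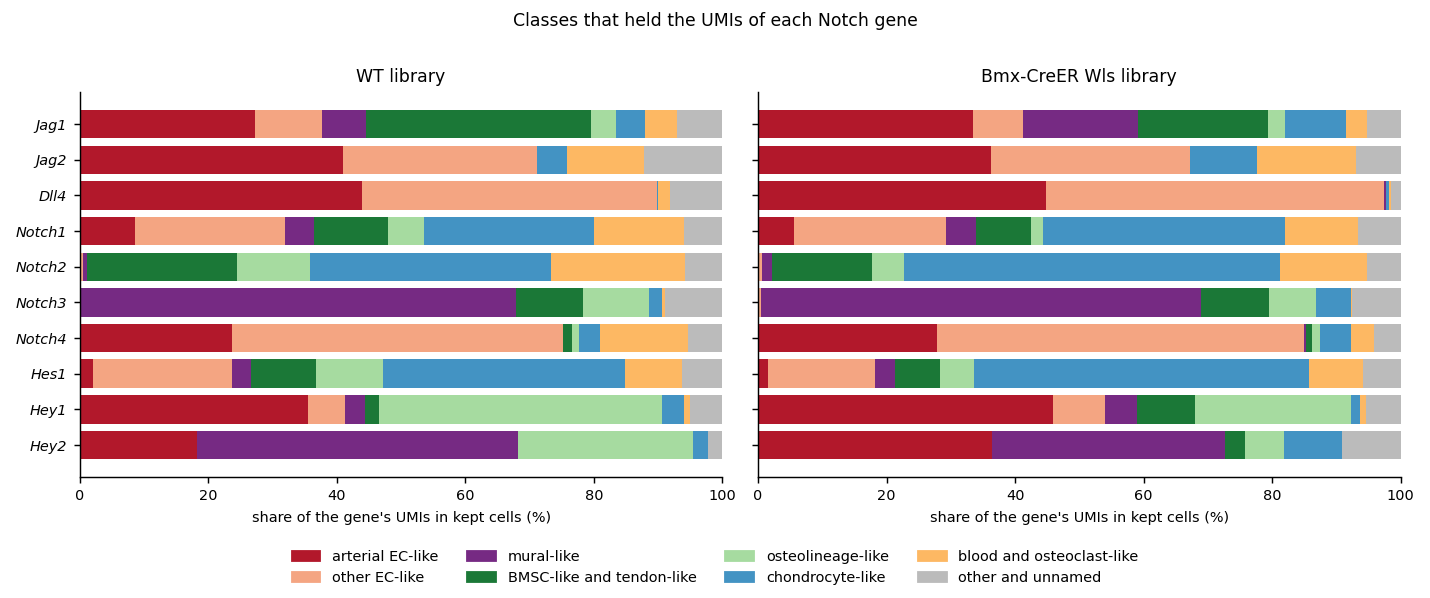
Share of each gene's UMIs, in percent of its UMIs in kept cells, that lay in each class, in the WT library (left) and the Bmx-CreER Wls library (right). Endothelial classes held most of the *Dll4* and *Notch4* UMIs, mural-like cells most of the *Notch3* UMIs, and chondrocyte-like cells a growing part of *Notch2* and *Hes1* from the left to the right panel (46.3% and 66.3% of the cells).

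Within the classes, levels differed between smaller clusters. These are named here by their leading genes, and the values are in CPM for the WT and then the Bmx-CreER Wls library. In the endothelium, *Jag1* was 119 (72.4 to 183) and 77.5 (42.4 to 130.1) in the cluster led by *Vwf* and *Amigo2*. *Notch4* was only 23.7 (6.46 to 60.7) and 38.8 (15.6 to 79.9) in this cluster, which was left unnamed. The arterial marker *Edn1* was among its leading genes. *Hes1* in the sinusoidal cluster led by *Vcam1* and *Stab2* was 188 (121 to 280.1) and 168 (80.7 to 309), with intervals that overlapped those of arterial EC-like cells. *Dll4* was present at 41.5 (16.7 to 85.5) to 151 (119 to 189.8) in the clusters of other EC-like cells that held at least 10 cells in each library.

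Among mural-like cells, *Jag1* was 289.7 (139 to 533) and 497 (389 to 626) in the cluster led by *Igfbp5* and *Myh11*, a smooth muscle gene, and 82.0 (41.0 to 147) and 113 (64.3 to 183) in the pericyte-type cluster led by *Steap4* and *Cygb*. *Notch3* was at 2105 to 3216 in the first and 2294 to 2640.5 in the second. *Hey2* was 129.6 (78.0 to 202) and 34.2 (7.05 to 99.9) in the cluster led by *Afp* and *Apoa1*, from 19 and 3 UMIs. None of the 10 leading genes of this cluster, among them *Alb* and *Fgb*, was a mural marker. It was left unnamed and kept in the class it was split from.

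In osteolineage-like cells *Notch3* and *Hey1* were high in the same clusters. The cluster led by *Mmp9*, *Lpl* and *Col4a1* had *Notch3* at 249.6 (187 to 326) and 580.3 (420 to 782) and *Hey1* at 184 (131 to 251) and 108 (46.6 to 213). The cluster led by *Tnc* and *Olfml2b* had *Notch3* at 121 (89.5 to 161) and 149.6 (102 to 212) and *Hey1* at 202 (160.5 to 252) and 174 (122 to 241). In the cluster led by *Ibsp* and *Ifitm5*, genes of mature osteoblasts, *Notch3* was 9.60 (2.61 to 24.6) and 10.2 (2.10 to 29.8) and *Hey1* 2.40 (0.0607 to 13.4) and 6.79 (0.822 to 24.5). *Hes1* was highest, at 547 (439.7 to 672) and 584 (454 to 739), in the cluster led by *Col10a1* and *Mgp*. This cluster of 59 cells matched the hypertrophic chondrocyte markers best and was kept in the class it was split from, but none of its 10 leading genes was an osteolineage marker and *Col10a1* and *Acan* are chondrocyte markers. In all, 4 clusters, the largest of them 335 other EC-like cells with *Hba-a1* among their leading genes, led with a listed marker of another class and none of their own. Clusters led only by genes outside the marker lists, such as the mural cluster led by *Afp* and *Apoa1*, are not counted.

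In blood cells, nearly all *Hes1* UMIs of the mast cell and basophil-like class lay in the cluster led by *Cpa3*, *Gzmb* and *Cma1*, mast cell protease genes. This cluster had 1791 (1518 to 2098) and 1352 (1176 to 1547) CPM, from 153 and 211 UMIs in 17 and 26 cells. The cluster led by the basophil genes *Prss34* and *Mcpt8* had 1 *Hes1* UMI in each library. Since the first cluster held 17 of 60 cells in the WT class and 26 of 47 in the Bmx-CreER Wls class, the make-up of the class moved with its *Hes1* level, and within the cluster the WT value was the higher. HSPC-like cells also split by *Hes1*. The cluster led by *Hlf*, a stem cell gene, had 165 (128 to 211) and 147 (104 to 200.3), and the cluster led by *Cd34* and *H2afy* had 17.6 (8.81 to 31.6) and 25.5 (11.7 to 48.4). *Hlf* was the only HSPC marker among the leading genes of the first cluster, which also included *Fosl2*, *Nr4a2*, *Dusp5*, *Nr4a1* and the erythroid marker *Hbb-bt*. *Notch1* in the same clusters was 28.0 (14 to 50) and 11.3 (2.32 to 32.9) against 16 (7.69 to 29.5) and 5.67 (0.687 to 20.5), with overlapping intervals. The highest *Notch2* among blood clusters, 258 (141 to 433) and 235 (149 to 352), was in an unnamed cluster led by *S100a9* and *Lyz2*.

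**Figure D3:**
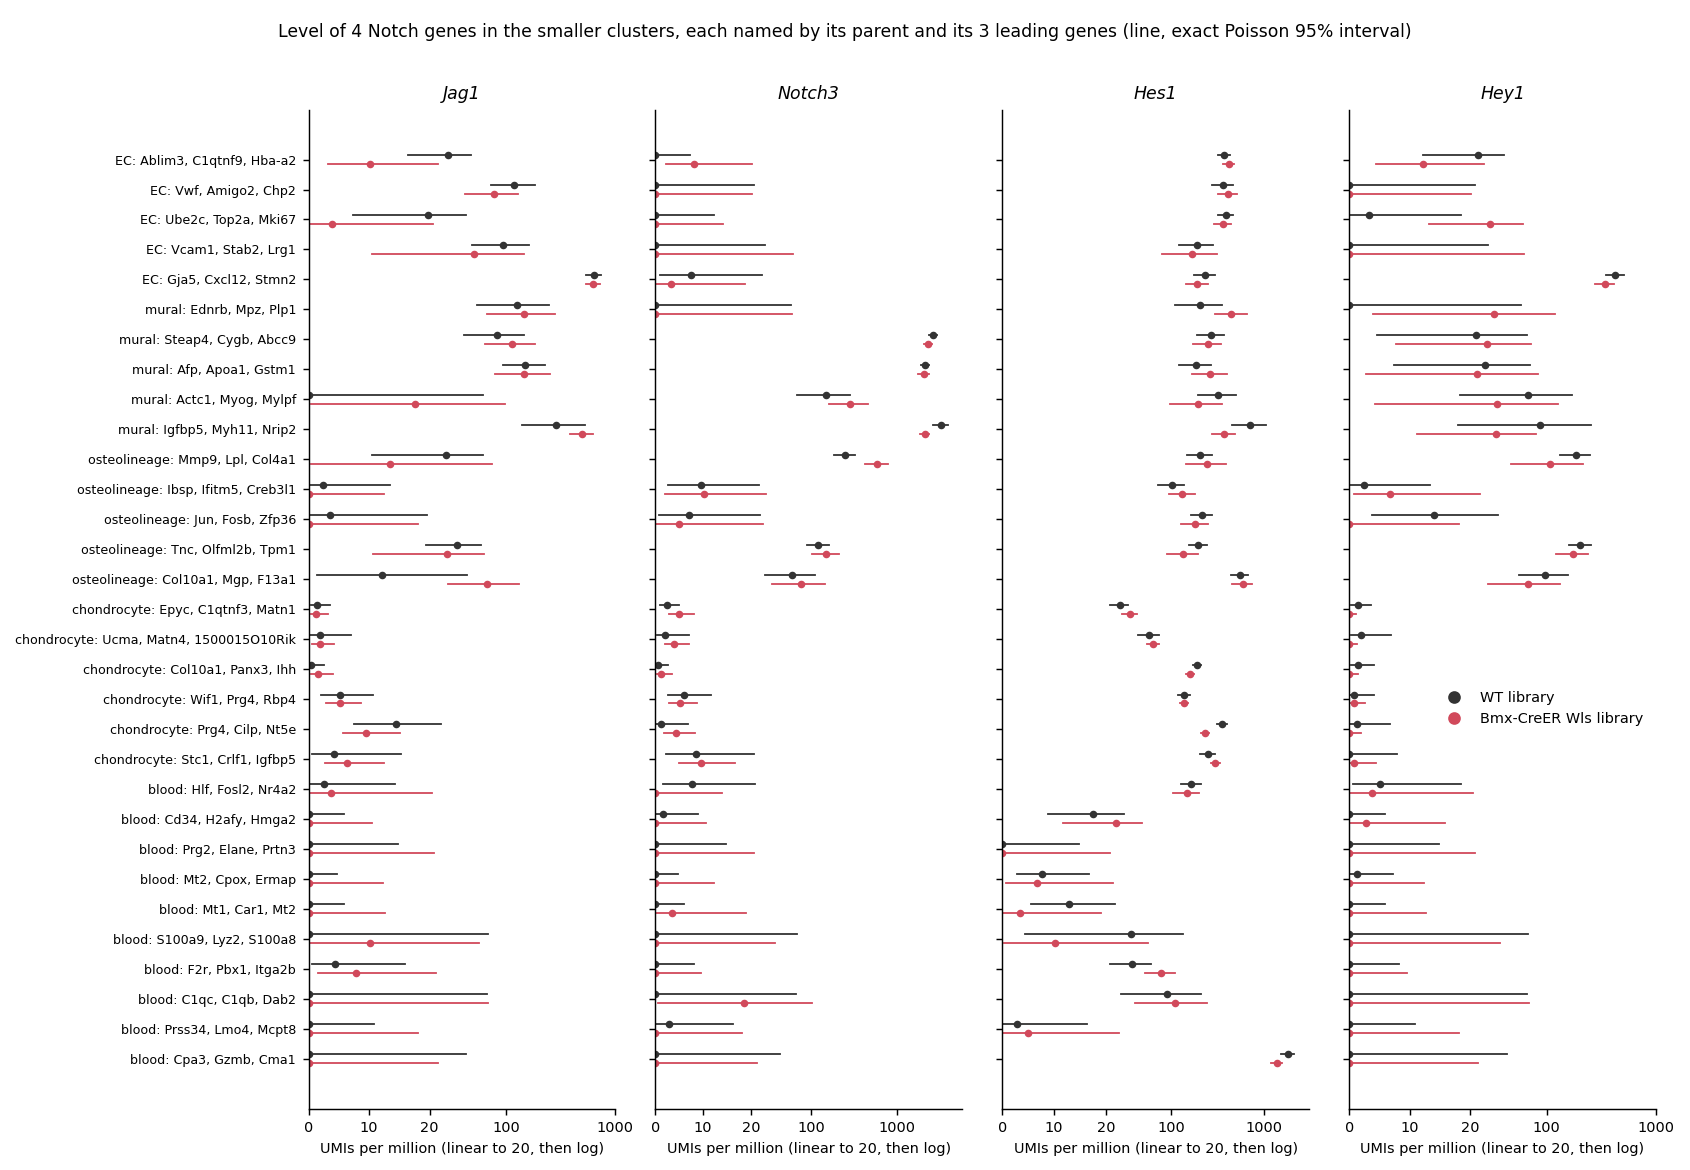
Level of *Jag1*, *Notch3*, *Hes1* and *Hey1* in smaller endothelial, mural, osteolineage, cartilage and blood clusters with at least 10 cells in each library, without 1 endothelial cluster, each named by its parent and 3 leading genes, in CPM on an axis that is linear to 20 and logarithmic above. Points are the WT (dark) and Bmx-CreER Wls (red) libraries and lines exact 95% Poisson intervals. Clusters split from the BMSC group, clusters set aside as mixed and the osteoclast-like cluster are not shown. Among the clusters shown, the arterial cluster led by *Gja5* stands apart for *Jag1* and *Hey1*, 3 mural clusters for *Notch3*, and the mast cell cluster led by *Cpa3* for *Hes1*.

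The first comparison asked how arterial ECs differ from the other ECs of the same library. *Jag1*, *Jag2*, *Dll4*, *Notch4* and *Hey1* were more than 2-fold higher in arterial EC-like than in other EC-like cells of both libraries, while *Hes1* was lower. A gene was called when its ratio was at least 2 in either direction and both sets together held at least 20 of its UMIs. In the WT library 6 of the 7 members with enough UMIs were called higher and 0 lower, where 6.32% of the 8384 genes compared were called higher and 16.5% lower. In the Bmx-CreER Wls library 5 of 7 were called higher and 1 lower, against 6.85% and 15.5% of 8210 genes. The median log2 ratio of the members was 2.48 and 1.99, and that of all genes compared was -0.16 and -0.17. The classes were named from other genes, and the members were picked with the arterial pattern of some of them known.

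By ratio, with conditional binomial 95% intervals, *Hey1* was 36.6 times as high in arterial EC-like as in other EC-like cells of the WT library (22.1 to 63.9) and 26.5 times in the Bmx-CreER Wls library (15.9 to 46.5). *Jag1* stood at 15.5 (11.5 to 21) and 20.4 (14.6 to 29.2), *Jag2* at 7.86 (4.25 to 14.8) and 5.45 (2.77 to 10.9), *Dll4* at 5.59 (4.43 to 7.07) and 3.98 (3.2 to 4.96), and *Notch4* at 2.69 (1.98 to 3.62) and 2.27 (1.74 to 2.95). In each library the ratio to other EC-like cells was larger for *Jag1* than for *Dll4*, with intervals that did not overlap, while arterial EC-like cells held 44.0% and 44.8% of all *Dll4* UMIs against 27.3% and 33.5% of all *Jag1* UMIs. *Notch1* passed the 2-fold line in the WT library alone, at 2.11 (1.13 to 3.74) from 17 and 47 UMIs, and was 1.12 (0.376 to 2.80) in the other. With the classes that the study lists for WT cells it was 1.2. *Hes1* was 0.541 (0.409 to 0.705) and 0.447 (0.334 to 0.587), so it lay on either side of the 2-fold line with intervals below 1 in both. *Hey2*, under the 20 UMI minimum, had 8 arterial against 0 other EC UMIs in the WT library, at least 15.5-fold higher against the limit of 3 counts, and 12 against 0 in the Bmx-CreER Wls library, at least 18.7-fold higher. With the counting error of the arterial UMIs included, the lower 95% limits of these ratios were 9.94 and 13. *Notch2* had 0 arterial UMIs against 6 and 7 in other EC-like cells. The intervals of the 2 libraries overlapped for each of the 7 ratios.

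**Figure D4:**
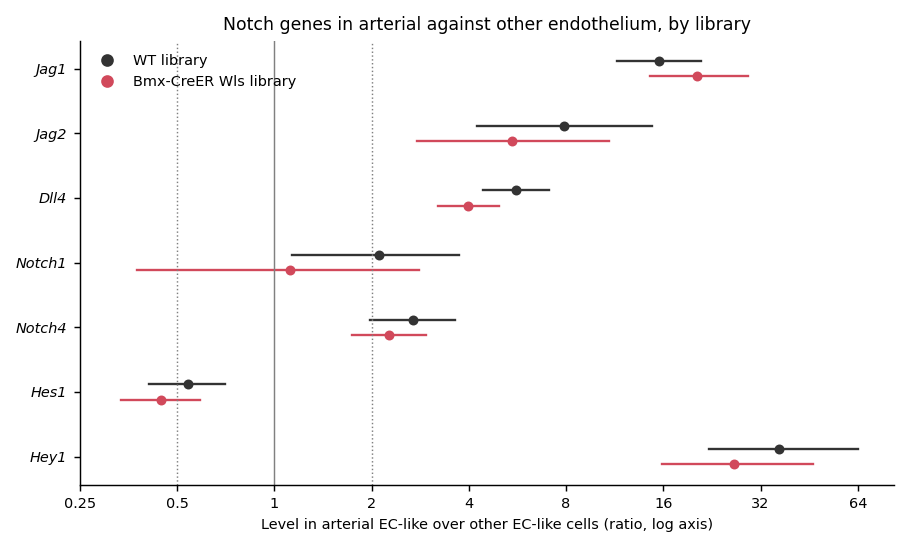
Level in arterial EC-like over that in other EC-like cells, as a ratio on a logarithmic axis, for the 7 members with at least 20 UMIs over both classes; points are the WT (dark) and Bmx-CreER Wls (red) libraries, lines 95% conditional binomial intervals and dotted lines 2-fold. *Hey1* and *Jag1* lie farthest to the right, above 15 in both libraries, and *Hes1* lies left of 1.

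By median ratio, the rest of the pathway lay closer to all genes compared than to the members. Of 47 other pathway genes listed, which cover further ligands, glycosyltransferases, proteases, the nuclear complex, inhibitors and other targets, 35 had enough UMIs in each library. In the WT library 4 were called higher and 4 lower, where 6.32% and 16.5% of all genes compared were. In the Bmx-CreER Wls library 2 were called higher and 6 lower, where 6.85% and 15.5% of all genes were. The median log2 ratio of the list was -0.07 and 0.06, against -0.16 and -0.17 for all genes and 2.48 and 1.99 for the members. *Furin*, which encodes the protease that cleaves Notch receptors on their way to the surface, was the one called higher in both, at 2.01 (1.26 to 3.13) and 2.59 (1.67 to 3.95). *Dll1*, a further Delta-like ligand, *Neurl1b*, a ubiquitin ligase for ligand endocytosis, and *Maml3*, a coactivator of the nuclear complex, were called lower in both, with *Dll1* at 0.472 (0.168 to 1.08) and 0.340 (0.0895 to 0.921). These calls rest on few arterial UMIs, 6 and 4 for *Dll1* and 2 in each library for *Neurl1b* and for *Maml3*. *Nrarp*, a Notch target that feeds back on the pathway, was 0.714 (0.532 to 0.941) and 0.451 (0.327 to 0.609), on the same side as *Hes1*. *Rbpj* was 2.30 (1.17 to 4.28) in the WT and 0.835 (0.252 to 2.19) in the Bmx-CreER Wls library, from 15 and 5 arterial UMIs.

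Single arterial cells often held more than 1 ligand. At least 1 ligand UMI was found in 70 of 78 WT and 63 of 73 Bmx-CreER Wls arterial EC-like cells, at least 2 different ligands in 47 and 39 cells and all 3 in 11 and 8 cells. *Jag1* and *Dll4* were found together in 38 and 30 cells. The share with *Dll4* was 74.5% of WT cells with *Jag1* and 70.4% of those without, and 66.7% and 64.3% in the Bmx-CreER Wls library. The cells with *Jag1* had a median of 2981 and 4599 UMIs and those without 2900 and 2484. A cell without a UMI can still hold the transcript.

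The second comparison asked how the Bmx-CreER Wls library differed from the WT library within each class. In arterial EC-like cells the ratio of the Bmx-CreER Wls to the WT level was 0.991 (0.801 to 1.23) for *Jag1*, 0.697 (0.374 to 1.28) for *Jag2*, 0.957 (0.759 to 1.21) for *Dll4*, 1.18 (0.848 to 1.65) for *Notch4*, 0.837 (0.573 to 1.22) for *Hes1*, 0.809 (0.613 to 1.07) for *Hey1* and 1.34 (0.505 to 3.79) for *Hey2*. Each of these intervals includes 1. Under the stricter filter on cells (a minimum of 1000 UMIs, and mitochondrial genes below 10%) the *Hes1* ratio was 1.41 and that of *Hey2* 2.19. The intervals were narrowest for *Jag1* and *Dll4*, which had 170 and 188, and 146 and 156 UMIs in the WT and Bmx-CreER Wls cells. *Notch1* was called lower in arterial EC-like cells, at 20.1 against 63.6 CPM, a ratio of 0.316 (0.102 to 0.840) from 6 and 17 UMIs. That is 1 of the 8 members with enough UMIs, where 6.50% of the 4756 genes compared were called in either direction. Arterial EC-like cells of the Bmx-CreER Wls library also carried more chondrocyte marker UMIs, 734 against 258 CPM over 11 genes with 1 and 2 of them at 0, and their part in these ratios was not tested.

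*Notch1* had a ratio below 1 in each of the 7 classes, from 0.298 to 0.594, and was called in 3 of them. Mural-like cells (5 UMIs against 9 in WT) and osteolineage-like cells (2 against 11, the lowest ratio) were under the minimum of 20 UMIs, and the intervals of these classes and of BMSC-like cells, at 0.538 (0.208 to 1.25), include 1, as does that of HSPC-like cells, which were called. In chondrocyte-like cells it was 2.79 (2 to 3.80) against 6.06 (4.54 to 7.93) CPM, a ratio of 0.461 (0.298 to 0.708) from 40 and 53 UMIs. This was 1 of 6 members there, where 3.60% of 12994 genes were called. In HSPC-like cells it was 8.08 (2.62 to 18.8) against 20.6 (12.8 to 31.6), a ratio of 0.391 (0.115 to 1.07) from 5 and 21 UMIs, 1 of 3 members, where 3.85% of 8204 genes were called. The HSPC-like interval includes 1, and with the mean over cells of each cell's level in place of the sum the ratio was 0.927. Other EC-like cells had a ratio of 0.594 (0.350 to 0.984). Other receptors were not lower throughout. *Notch4* in other EC-like cells was 128 against 91.9, a ratio of 1.40 (1.12 to 1.75), and *Dll4* was 131 against 97.7, a ratio of 1.34 (1.08 to 1.68). Neither reached 2-fold, and 0 of the 7 members in other EC-like cells were called, where 2.87% of 9392 genes were.

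In mural-like cells *Hey2* was called lower, at 32 against 69.8 CPM, a ratio of 0.459 (0.207 to 0.968) from 12 and 22 UMIs. It was 1 of 6 members, where 7.11% of 5712 genes were called. Of the 22 WT UMIs 19 lay in the *Afp* and *Apoa1* cluster, which held 42 of the 106 WT but 22 of the 105 Bmx-CreER Wls mural-like cells. The ratio was 0.527 with 30 principal components and 0.520 without the 5% of cells with the highest doublet scores, short of the fold used, as was the mean over cells. *Jag1* was just short of the fold used, at 269 against 136, a ratio of 1.98 (1.37 to 2.89), and a UMI was present in 51.4% against 27.4% of mural-like cells, or 26.0% against 13.2% after thinning. *Notch2* was close to it, at 56.0 against 28.6 and a ratio of 1.96 (0.862 to 4.87) from 21 and 9 UMIs, and passed 2-fold under 3 alternatives (2.20 to 2.87). In this class the 5 skeletal muscle markers were at 141 against 12.7 CPM, from 53 and 4 UMIs with 4 of 5 at 0 in each library, and the 7 tendon markers at 427 against 203 CPM with 5 of 7 at 0 in each. Their part in the ratios was not tested. The *Igfbp5* and *Myh11* cluster, the highest in *Jag1*, held 38 of the 105 Bmx-CreER Wls and 13 of the 106 WT mural-like cells. Within it the *Jag1* intervals overlapped (389 to 626 and 139 to 533), as they did in the *Steap4* and *Cygb* cluster (64.3 to 183 and 41.0 to 147) and in the *Afp* and *Apoa1* cluster, at 148 (78.9 to 253) and 150.1 (94.1 to 227). *Notch3* was 0.881 (0.798 to 0.974) of its WT level in mural-like cells. *Nrarp* was 526 against 241, a ratio of 2.18 (1.66 to 2.88), on 197 and 76 UMIs, and is among the leading genes of the *Igfbp5* and *Myh11* cluster.

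In BMSC-like cells *Hey1* was called higher, at 6.63 (3.71 to 10.9) against 2 (0.804 to 4.12) CPM, a ratio of 3.31 (1.27 to 9.61) from 15 UMIs in 8 cells and 7 UMIs in 7 cells. It was 1 of 6 members, where 4.22% of 10907 genes were called. Under 3 alternatives it was below the minimum of 20 UMIs, and the ratio over all alternatives was 2.30 to 4.93. *Notch3* was 51.3 against 32.9 there, a ratio of 1.56 (1.2 to 2.04). The class differed in make-up, with 271 WT and 53 Bmx-CreER Wls cells in the cluster led by *Mfap5* and *Pi16*. In osteolineage-like cells 0 of 5 members were called, where 4.36% of 8909 genes were. *Hey1* was 60.1 against 94.9, a ratio of 0.633 (0.454 to 0.873), and *Notch2* 72.4 against 106, a ratio of 0.680 (0.501 to 0.913). In chondrocyte-like cells, the largest class, *Hes1* was 131 against 130.4, a ratio of 1 (0.930 to 1.08).

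In total, 5 of the 41 pairs of member and class with enough UMIs were called, 3 of them *Notch1*, where 2.87% to 7.11% of all genes compared were called in a class. With a minimum of 50 UMIs in place of 20 the call of *Notch1* in chondrocyte-like cells was left, and its ratio was 0.502 at a Leiden resolution of 1.0 and 0.537 with 30 principal components, short of the fold used. The other 47 pathway genes gave, in arterial EC-like cells, 3 higher, among them *Dlk1*, and 2 lower, among them *Rbpj*, of 26 with enough UMIs, where 6.50% of all genes were called. Mural-like cells had 3 higher, among them *Nrarp*, and 2 lower of 29, where 7.11% were. Other EC-like cells had 1 higher (*Aph1b*) of 36 (2.87% of all genes), osteolineage-like cells 1 higher (*Dlk1*) of 31 (4.36%), HSPC-like cells 1 higher (*Dtx2*) of 32 (3.85%), BMSC-like cells 0 of 36 (4.22%) and chondrocyte-like cells 0 of 40 (3.60%). *Dlk1*, a non-canonical ligand made by stromal cells, was 127 against 33.7 in arterial EC-like and 236 against 86.1 in osteolineage-like cells, with ratios of 3.78 (1.80 to 8.90) and 2.74 (2.19 to 3.44). In the same arterial EC-like cells the chondrocyte markers were at 734 against 258 CPM and the 7 tendon markers at 93.8 against 7.48 CPM, from 28 and 2 UMIs with 4 and 6 of them at 0, and *Dlk1* was a leading gene of the endothelial cluster set aside as mixed with chondrocytes. Their part in the *Dlk1* ratio was not tested. *Rbpj* was 16.8 against 56.1 in arterial EC-like cells, a ratio of 0.299 (0.0849 to 0.864) from 5 and 15 UMIs.

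**Figure D5:**
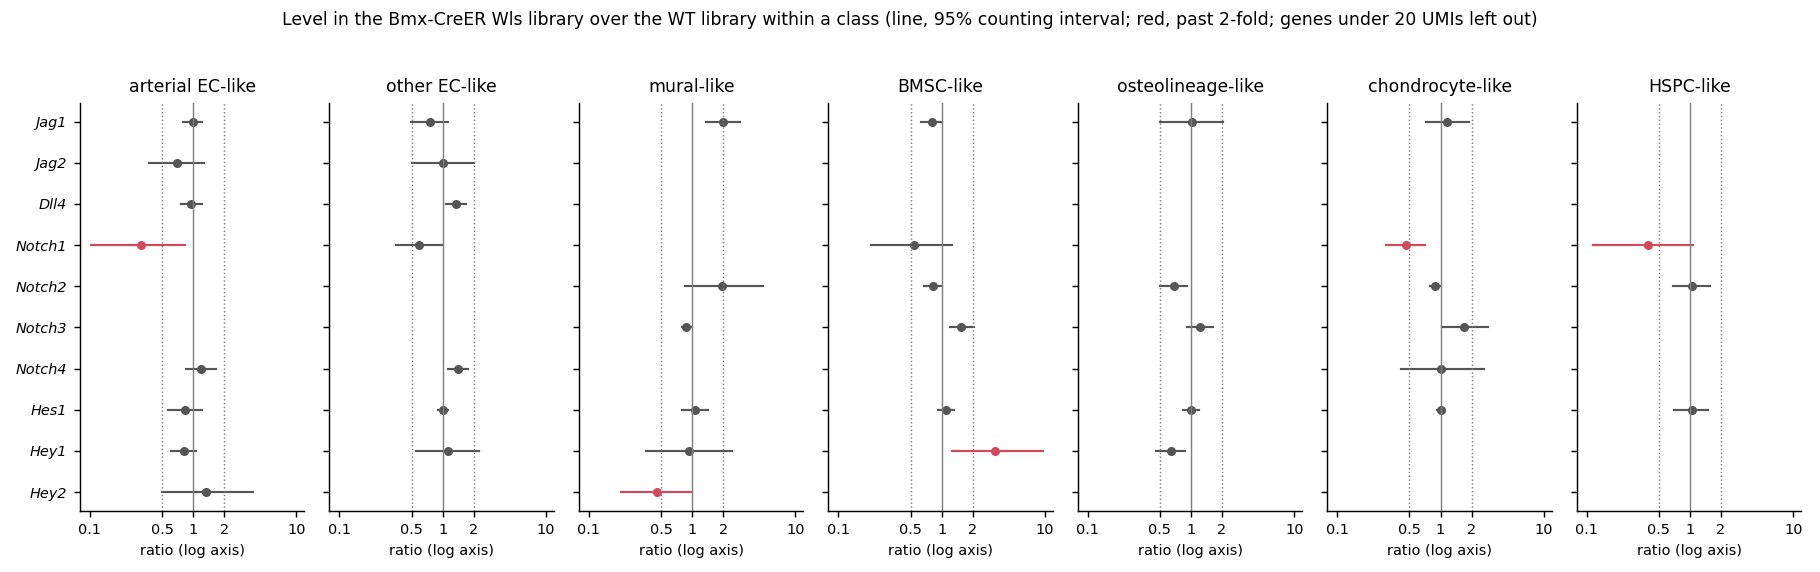
Ratio of the level in the Bmx-CreER Wls library to that in the WT library within 7 classes, on a logarithmic axis, with 95% conditional binomial intervals as lines; red marks ratios past 2-fold, dotted lines are 2-fold, and members under 20 UMIs in a class are left out. Of the 5 red points 3 are *Notch1*, and *Jag1*, *Dll4*, *Notch4* and *Hes1* lie close to 1 in arterial EC-like cells.

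Genes with the most alike pattern were found by Pearson's correlation of log2 levels over the 32 combinations of class and library, among 11181 genes. The points share libraries and some have few cells, so the values are descriptions. *Dll4* was most like *Sox17* (r = 0.997), *Cldn5* (0.992) and *Mmrn2* (0.991), an arterial transcription factor and 2 general endothelial genes. *Notch4* was most like *Cldn5* (0.974), *Mmrn2* (0.971) and *Dll4* (0.97), and was the one member with another member among its closest 3. *Jag2* was most like *Stmn2* (0.900), *Sox17* (0.886) and *Vwf* (0.885), and *Jag1* like *Pik3r3* (0.900), *Agrn* (0.896) and *Filip1* (0.862). *Notch3* was most like *Cygb* (0.949), *Gucy1b3* (0.898) and *Prkar1b* (0.898), of which *Cygb* is a pericyte gene. *Hey2* was most like *Aoc3* (0.896), *Gja4* (0.883) and *Gdf11* (0.842), with *Aoc3* known from smooth muscle and *Gja4* from arteries. *Hey1* was most like *Pgf* (0.853), *Tmem47* (0.810) and *Msx1* (0.806). The broad genes had weaker likeness, with *Notch1* closest to *Fkbp1a* (0.782), *Rgs16* (0.773) and *Mmp15* (0.756), *Hes1* to *Tuba1a* (0.762), *Tmsb10* (0.758) and *Fyn* (0.748), and *Notch2* to *Sesn1* (0.662), *Psd3* (0.659) and *Mlec* (0.653).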

How the data were processed

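Lin- femoral bone marrow cells of E18.5 embryos were profiled with BD Rhapsody, 1 library per group. Per the study's methods, the authors used UMI-tools 1.0.1, STAR 2.7.1a, mm10 and featureCounts 1.6.4 to make the deposited count tables, which hold UMI counts per gene and barcode and are not normalised. Whether counting used strand is not given in the sources used here.

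The cell filter required over 200 detected genes, under 5000, and less than 30% mitochondrial UMIs. Both libraries were clustered together with scanpy 1.11.5 (11 principal components, 20 nearest neighbours, Leiden resolution 0.5, then again within groups). The Notch genes, the other pathway genes and cell cycle genes were left out of the variable genes. Clusters were named from marker lists where the list's mean log2 fold was above 0.3 and its median above 0.2. This naming rule was the third version tried, set after the clusters had been seen. Scrublet called 38 WT cells and 0 Bmx-CreER Wls cells, so it had not worked, and doublets were kept.

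UMIs were summed per class. Levels carry exact Poisson 95% intervals, shares exact Clopper-Pearson intervals and ratios conditional binomial intervals (scipy 1.17.1), which cover counting error only. With 1 library per group there was no test. A ratio was called at 2-fold in either direction with at least 20 UMIs. All 10 members were named, with some of the pathway genes that were called (certain items are not reported here) and the 3 genes most alike each member among those with at least 200 UMIs, on levels plus 10 CPM. The members and lists were chosen with earlier results of these data known. Alternatives covered the clustering, the cell filter, doublets, scaling, class names and the minimum count. The statistics scripts were tested on simulated data.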

Additional observations from a re-analysis of the deposited data

Results flagged for a closer look

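For 2 genes the ratio of the Bmx-CreER Wls to the WT level lay on opposite sides of 1 in different classes, each with an interval that leaves out 1. For *Notch3* it was 1.56 in BMSC-like and 1.70 (1.04 to 2.87) in chondrocyte-like cells, but 0.881 in mural-like cells. For *Hey1* it was 3.31 in BMSC-like and 0.633 in osteolineage-like cells. Over the 12 processing alternatives the mural-like *Notch3* ratio was 0.841 to 0.982, below 1 throughout but outside its reported interval under 1 of them. The difference between classes was not tested, since each group has 1 library.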

How the results depend on the processing

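No paired analysis was possible because each group has 1 library. The number of members at least 2-fold higher in arterial EC-like than in other EC-like cells was 5 to 6 in the WT and 4 to 5 in the Bmx-CreER Wls library over all alternatives. The number of member and class pairs past 2-fold between the libraries was 5 as reported, 4 to 6 under the other alternatives, and 1 with at least 50 UMIs, which leaves fewer genes compared. Members with the same highest class numbered 6 to 7. Of the single ratios recomputed, 165 of 172 between EC classes and 467 of 479 between the libraries stayed within the interval of the reported value, and none of those called changed direction. Of the single levels recomputed, 1337 of 1470 stayed within the interval of the reported value and 133 did not. *Hey1* in WT arterial EC-like over other EC-like cells ranged from 21.2 to 73.5, *Jag1* in mural-like cells between the libraries from 1.79 to 2.40, and *Notch3* in chondrocyte-like cells from 1.36 to 2.31. The first naming rule tried and leaving out clusters led by another class's markers were added after seeing the data. Low UMI numbers limit *Notch1*, *Jag2* and *Hey2*.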
